A study of Mus musculus with 18 samples.

Results

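Secretory cells of the intestinal epithelium, which are the goblet, Paneth, enteroendocrine and tuft cells, arise from Lgr5+ stem cells under the direction of a small set of transcription factors. RNA levels of 10 such factors (*Atoh1*, *Gfi1*, *Spdef*, *Neurog3*, *Neurod1*, *Insm1*, *Pou2f3*, *Sox4*, *Foxa3* and *Bhlha15*) were followed in Lgr5+ cells of the small intestine (SI) and large intestine (LI). These genes were chosen by their symbols among the 43346 genes of the count table, and all 10 passed the filter on low counts. RNA of sorted cells was sequenced in 18 libraries, 3 from each of 6 groups. By the labels all mice were untreated, of strain C57BL/6 (the paper's methods name a mixed background as well) and of genotype Lgr5_eGFP_Iris_creERT2, an allele that puts GFP and an inducible Cre under the *Lgr5* locus, with an age of 8 to 20 weeks in the labels and a wider range in the paper's methods. EPCAM-positive cells with high, medium and low GFP were taken as Lgr5+ cells of the crypt centre, of its border, and of the region above it (row >3). The allele is active in patches of the epithelium, so the cells came from the crypts in which it was expressed. The methods call the libraries of a group biological replicates, without naming the mouse behind each replicate number.

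In crypts, a cell that escapes Notch signalling from its neighbours expresses *Atoh1*, the basic helix-loop-helix factor that all Atoh1-dependent secretory cells require, while Notch target genes such as *Hes1* repress it in absorptive progenitors. *Gfi1* and *Spdef* act downstream, *Gfi1* to favour goblet and Paneth over enteroendocrine fate and *Spdef* to mature goblet and Paneth cells. *Neurog3* opens the enteroendocrine programme, in which *Neurod1* and *Insm1* follow, and *Pou2f3* is required for tuft cells. *Sox4* is an SRY-box factor of crypt progenitors, *Foxa3* a forkhead factor of endoderm, and *Bhlha15* (Mist1) a basic helix-loop-helix factor that builds the secretory apparatus of exocrine cells.

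Library totals lay between 8312093 counts, in SI border replicate 1, and 31940965 counts. *Lgr5* itself, whose locus drives the sorted GFP, fell with the sort level, with normalised counts of 2434 to 5252 in SI centre, 157 to 2028 in SI border and 28.1 to 279.6 in SI row >3 cells, and of 2176 to 2575, 1184 to 1676 and 134 to 466 in the same order in the LI. The lowest SI border value, that of replicate 3, lay within the range of the row >3 libraries. The 3 SI libraries of replicate 3 also stood apart in their site markers: over 20 genes chosen for being present in every LI library and nearly absent from the SI libraries of replicate 1, the median level was 50.5% of the LI level in the centre, 86.7% in the border and 93.2% in the row >3 library, against 0.374% to 0.886% in the SI libraries of replicate 2. These libraries are named by their labels, and whether the labels hold for them was not tested. The comparisons of the members are therefore given with all libraries and without these 3. In bulk RNA of sorted cells, a lower level can mean fewer cells of a type or less RNA per cell, and these cannot be told apart.

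Positions were read from GENCODE M21 on GRCm38 (mm10). *Atoh1* (ENSMUSG00000073043) lies at chr6:64729125-64731245 on the plus strand, *Spdef* (ENSMUSG00000024215) at chr17:27714352-27728955 on the minus strand, *Foxa3* (ENSMUSG00000040891) at chr7:19013284-19023538 on the minus strand, *Sox4* (ENSMUSG00000076431) at chr13:28948919-28953713 on the minus strand and *Bhlha15* (ENSMUSG00000052271) at chr5:144190286-144194441 on the plus strand. Of the other members, *Gfi1* (ENSMUSG00000029275) lies at chr5:107716657-107726036 (minus), *Neurog3* (ENSMUSG00000044312) at chr10:62133090-62134763 (plus), *Neurod1* (ENSMUSG00000034701) at chr2:79452521-79456751 (minus), *Pou2f3* (ENSMUSG00000032015) at chr9:43123939-43210369 (minus) and *Insm1* (ENSMUSG00000068154) at chr2:146221921-146225020 (plus). Exons of *Sox4* share 2616 bp with an antisense lincRNA, *Gm26735*, to which at most 27 counts per library were assigned. Exons of *Neurog3* share 273 bp with *Fam241b* on the opposite strand, which had 20 to 148 counts per library against 0 to 71 for *Neurog3*, so its reads are not assigned with certainty. Exons of *Neurod1* share 201 bp with *Cerkl* on the same strand, which had 0 to 21 counts per library.

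Atoh1, Neurog3, Neurod1 and Bhlha15 are proteins that bind the E-box, CANNTG on either strand, and the 250 bases before the start site were searched for these letters in RefSeq promoters of GRCm38.p6. Entries existed for 8 of the 10 members. Over all 32851 windows of this length, 66.2% held at least 1 E-box and 12.2% held at least 3. Printed are the windows of *Atoh1* and *Spdef*, the pair of members with the closest pattern across libraries. Those of *Foxa3* and *Sox4* follow, the members that differed between SI row >3 cells and both other SI positions with all libraries, in opposite directions. The last is that of *Bhlha15*, the member with the largest difference between SI and LI border cells. The windows lie at chr6:64728875-64729124 (plus) for *Atoh1*, chr17:27728952-27729201 (minus) for *Spdef*, chr7:19023540-19023789 (minus) for *Foxa3*, chr13:28953700-28953949 (minus) for *Sox4* and chr5:144190036-144190285 (plus) for *Bhlha15*. Each is written from 5′ to 3′ on the strand of its gene, with E-boxes in capitals.
Atoh1: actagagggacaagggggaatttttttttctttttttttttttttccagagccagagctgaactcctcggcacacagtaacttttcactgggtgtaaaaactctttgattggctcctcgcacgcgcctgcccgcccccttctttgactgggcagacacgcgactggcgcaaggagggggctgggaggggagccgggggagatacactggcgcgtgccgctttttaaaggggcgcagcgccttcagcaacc
Spdef: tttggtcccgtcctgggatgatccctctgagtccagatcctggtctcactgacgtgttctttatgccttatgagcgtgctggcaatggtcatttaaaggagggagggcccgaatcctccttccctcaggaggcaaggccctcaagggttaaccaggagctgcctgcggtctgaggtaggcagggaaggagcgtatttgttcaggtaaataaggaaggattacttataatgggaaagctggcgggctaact
Foxa3: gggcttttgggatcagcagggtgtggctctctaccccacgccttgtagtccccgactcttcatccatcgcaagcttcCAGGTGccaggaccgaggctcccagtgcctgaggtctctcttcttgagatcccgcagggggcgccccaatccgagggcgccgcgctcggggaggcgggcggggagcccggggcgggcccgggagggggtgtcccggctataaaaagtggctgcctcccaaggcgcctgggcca
Sox4: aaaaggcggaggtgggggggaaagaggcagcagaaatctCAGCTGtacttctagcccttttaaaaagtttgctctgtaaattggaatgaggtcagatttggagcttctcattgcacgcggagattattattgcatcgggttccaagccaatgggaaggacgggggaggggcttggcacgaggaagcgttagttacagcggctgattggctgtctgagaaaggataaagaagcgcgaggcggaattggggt
Bhlha15: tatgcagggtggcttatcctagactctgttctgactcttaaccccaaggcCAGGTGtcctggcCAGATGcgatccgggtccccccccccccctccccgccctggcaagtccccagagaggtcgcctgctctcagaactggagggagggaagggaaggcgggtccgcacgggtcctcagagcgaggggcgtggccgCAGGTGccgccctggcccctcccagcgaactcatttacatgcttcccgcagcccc
The windows of *Atoh1* and *Spdef* held no such letters, those of *Foxa3* and *Sox4* held 1 each (CAGGTG and CAGCTG) and that of *Bhlha15* held 3 (CAGGTG at 2 places and CAGATG). *Neurog3* (CAGCTG) and *Neurod1* (CATATG) held 1 each. *Gfi1* had 2 entries, and the window of each held 1 (CACCTG and CAAGTG). No match says only that the letters are not in this window.

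Per kilobase of exon, *Sox4* was the most abundant member in SI centre cells, with a mean normalised count per kb of 796 ± 156 (SD, n = 3), and in LI centre cells, with 688 ± 96.7. In row >3 cells the order changed. *Atoh1* then led with 1042 ± 192 per kb in the SI and 1213 ± 268 in the LI, followed by *Spdef* with 877 ± 79.6 and 716 ± 96.1 and by *Foxa3* with 564 ± 72.6 and 481 ± 92. *Gfi1*, *Pou2f3* and *Bhlha15* formed a middle tier, with group means per kb between 15.4 and 202. The enteroendocrine factors *Neurog3*, *Neurod1* and *Insm1* had group means per kb of at most 34, the lowest in most groups, although *Neurog3* at 20.1 lay above *Bhlha15* at 15.4 in LI border cells, and 5 of their library values were 0 counts.

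**Figure D1:**
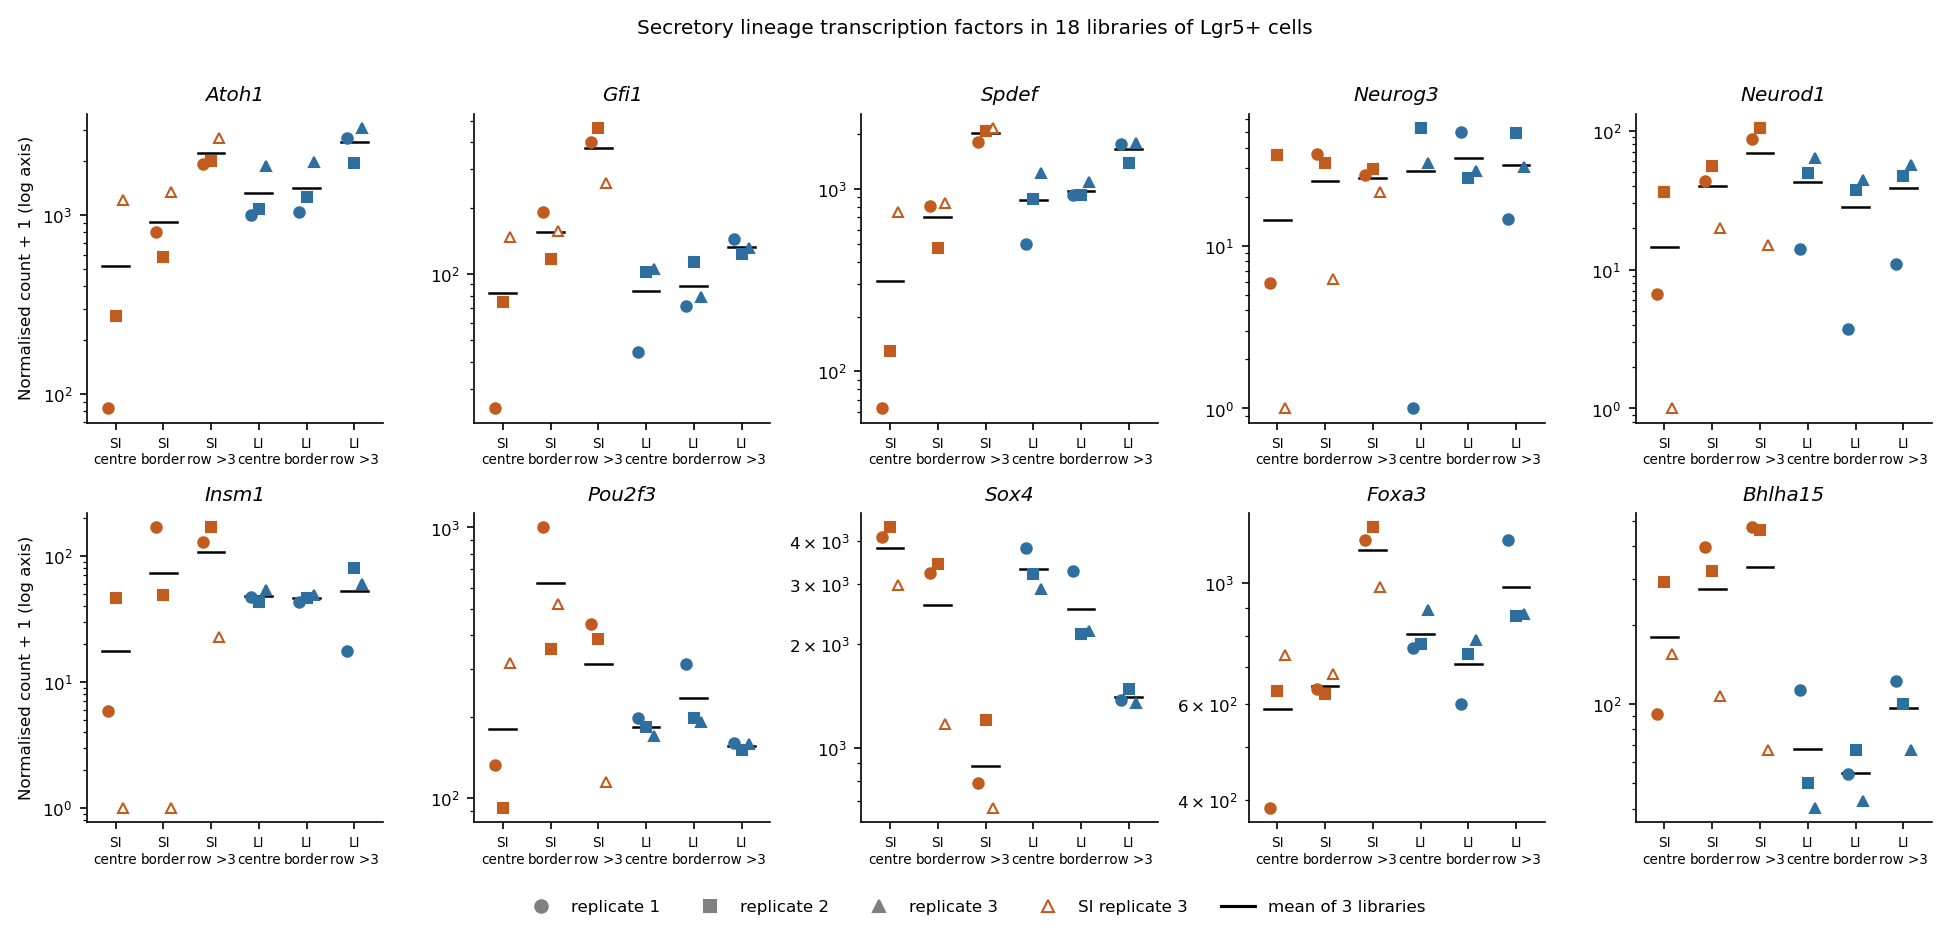
Normalised count plus 1 (log axis) of each member in all 18 libraries, by group. Each symbol is 1 library (circle, square and triangle for replicates 1, 2 and 3, open triangles for SI replicate 3) and each line is the mean of 3 libraries. All row >3 symbols of *Sox4* lie below, and all those of *Atoh1*, *Spdef* and *Gfi1* above, the centre symbols of the same site, and in SI centre the replicate 3 library lies above the other two for all of these except *Sox4*.

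*Atoh1* was read at 81.8, 269.8 and 1210 normalised counts in SI centre replicates 1, 2 and 3, at 803, 585 and 1352 in SI border and at 1939, 2013 and 2677 in SI row >3 cells. In the LI it was read at 996, 1080 and 1884 in centre, at 1042, 1259 and 1965 in border and at 2703, 1953 and 3066 in row >3 cells. All row >3 libraries of a site lay above all centre libraries of that site, the SI centre values spread over more than an order of magnitude, and the highest of them was that of replicate 3. SI centre libraries of replicates 1 and 2 were the lowest of all 18, while SI and LI row >3 cells overlapped.

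*Spdef*, an ETS factor of goblet and Paneth cell maturation, followed the same course. Its normalised counts were 61.6, 128 and 749.8 in SI centre, 805, 472 and 833 in SI border and 1814, 2083 and 2165 in SI row >3 cells. LI values were 499.9, 884 and 1222 in centre, 924, 932 and 1088 in border and 1763, 1395 and 1794 in row >3 cells. Row >3 libraries of each site lay above all of its centre and border libraries, centre and border overlapped, and in row >3 cells all SI libraries lay above all LI libraries.

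*Gfi1*, a zinc finger repressor, was read at 23.5, 73.7 and 147 normalised counts in SI centre, at 191, 117 and 156 in SI border and at 398, 463 and 259 in SI row >3 cells. In the LI its values were 43.5, 101 and 105 in centre, 70.6, 112 and 78.2 in border and 144, 122 and 130.1 in row >3 cells. Row >3 libraries were again above the centre and border libraries of their site without overlap. SI and LI overlapped in the centre, but in border and row >3 cells every SI library was above every LI library.

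The enteroendocrine factors were low and uneven between replicates. *Neurog3* had 4.86, 35 and 0 normalised counts in SI centre, 35.4, 31.1 and 5.26 in SI border and 26, 28.4 and 20.3 in SI row >3 cells. In the LI it had 0, 51.8 and 31.1 in centre, 48.6, 25 and 27.5 in border and 13.7, 47.8 and 29.2 in row >3 cells. All groups overlapped for *Neurog3*, and the libraries with 0 counts, SI centre replicate 3 and LI centre replicate 1, allow up to 2.8 and 3.53 normalised counts (3 reads, counting error only).

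*Neurod1*, which acts after *Neurog3*, had 5.67, 35 and 0 normalised counts in SI centre, 42.5, 54.4 and 18.9 in SI border and 86.2, 104 and 14.1 in SI row >3 cells. LI values were 12.9, 48.8 and 62.2 in centre, 2.75, 36.2 and 43.2 in border and 10, 46.3 and 55.6 in row >3 cells. Within each SI replicate the centre library was the lowest, whereas within each LI replicate it was the highest, and the groups overlapped in every comparison.

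*Insm1*, a zinc finger factor of endocrine precursors, had 4.86, 45.1 and 0 normalised counts in SI centre, 168, 48 and 0 in SI border and 127, 167 and 21.9 in SI row >3 cells. LI values were 45.9, 42.3 and 52.4 in centre, 42.2, 44.9 and 47.6 in border and 16.4, 79.7 and 58.5 in row >3 cells. The SI replicate 3 library was the lowest of its group at every position for *Insm1*, and the 2 libraries with 0 counts allow up to 2.8 and 3.16 normalised counts.

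*Pou2f3*, the POU factor of tuft cells, had 131, 91.2 and 316 normalised counts in SI centre, 1001, 355 and 519 in SI border and 440.4, 385 and 114 in SI row >3 cells. In the LI it had 198, 182 and 169 in centre, 313, 197 and 191 in border and 159, 149.6 and 158 in row >3 cells. It was the only member whose SI border libraries all lay above the SI centre libraries. SI border replicate 1, the shallowest library, held the highest value of all, and in the LI the row >3 libraries lay below all centre and border libraries.

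*Sox4* ran the other way. It was read at 4101, 4380 and 2965 normalised counts in SI centre, at 3228, 3423 and 1173 in SI border and at 789, 1200 and 667 in SI row >3 cells. LI values were 3806, 3193 and 2897 in centre, 3258, 2135 and 2177 in border and 1375, 1483 and 1344 in row >3 cells. Row >3 libraries lay below all centre libraries in both sites, SI row >3 libraries lay below all LI row >3 libraries, and centre values of the sites overlapped.

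*Foxa3* had 386, 634 and 738 normalised counts in SI centre, 638, 625 and 679.6 in SI border and 1197, 1265 and 982 in SI row >3 cells. In the LI it had 759, 770.4 and 892 in centre, 599.8, 739 and 786 in border and 1197, 868 and 877 in row >3 cells. Its SI row >3 libraries lay above all SI centre and border libraries, and its LI row >3 libraries above all LI border libraries but not above the centre libraries. SI centre libraries were all below LI centre libraries.

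*Bhlha15* had 90.8, 292 and 154 normalised counts in SI centre, 397, 320.1 and 106 in SI border and 471, 459 and 65.6 in SI row >3 cells. In the LI it had 112, 48.8 and 39.3 in centre, 53.2, 66.1 and 41.7 in border and 121, 98.7 and 66 in row >3 cells. SI border libraries all lay above LI border libraries. SI replicate 3 was the lowest SI library in border and row >3 cells, and its row >3 value lay below those of all LI row >3 libraries.

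To ask how the secretory programme changes with position, row >3 cells were first compared with centre cells of the SI. *Gfi1*, *Spdef* and *Foxa3* rose and *Sox4* fell by the quasi-likelihood test of edgeR, with p adjusted by Benjamini-Hochberg over all 26717 genes tested, that is 4 of the 10 members, where 13.2% of all genes were called. With the stricter low-count filter of edgeR (filterByExpr) 5 of 10 were called, *Atoh1* in addition, beside 25.8% of the 15998 genes tested. The 3 members that rose among the 26717 genes compare with 7.35% of all genes called higher. Libraries of the groups did not overlap for 5 members (*Atoh1*, *Gfi1*, *Spdef*, *Foxa3* and *Sox4*), against 24.9% of all genes. *Gfi1* was 4.64-fold higher in row >3 cells (log2 fold change 2.22 ± 0.43 SE, edgeR adjusted p = 0.0013) and *Spdef* 6.45-fold higher (2.69 ± 0.68, edgeR adjusted p = 0.0193). *Foxa3* was 1.96-fold higher (0.97 ± 0.21, edgeR adjusted p = 0.00324), and *Sox4* was 4.29-fold lower (-2.10 ± 0.30, edgeR adjusted p = 0.000233). *Foxa3*, *Gfi1* and *Sox4* passed the test whichever of the 6 libraries was left out, while *Spdef* did not pass without SI centre replicate 2 (2.32, edgeR adjusted p = 0.075). Fitted on the libraries of these groups alone, only *Foxa3* and *Sox4* were called (*Gfi1* at edgeR adjusted p = 0.0583, *Spdef* at 0.216), beside 10.7% of the 23846 genes tested there.

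The other members did not pass in this comparison with all libraries. *Atoh1* had a log2 fold change of 2.09 ± 0.72 (edgeR adjusted p = 0.0803), *Insm1* of 2.75 ± 1.03 (0.103), *Neurod1* of 2.43 ± 0.90 (0.0881), *Bhlha15* of 0.92 ± 0.59 (0.404), *Pou2f3* of 0.83 ± 0.46 (0.31) and *Neurog3* of 0.96 ± 0.89 (0.623). With replicate numbers blocked inside each site, *Atoh1* (2.54, edgeR adjusted p = 0.00665), *Insm1* (2.71, 0.00147) and *Neurod1* (2.40, 0.000687) rose too, which made 7 of 10, beside 22.8% of all genes. *Atoh1* also passed when SI centre replicate 3 alone was left out, at 3.66 (edgeR adjusted p = 0.000747), in DESeq2, at 2.09 (DESeq2 adjusted p = 0.00952), and with filterByExpr, at 2.09 (edgeR adjusted p = 0.0415). DESeq2 called 15.6% of all genes in this comparison. *Insm1* and *Neurod1* passed when SI centre replicate 2 (5.35 and 4.53) or SI row >3 replicate 3 (3.16 and 2.82) was left out, and *Pou2f3* when SI centre replicate 3 was (1.51, edgeR adjusted p = 0.0284).

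Without the 3 SI libraries of replicate 3, 9 of the 10 members differed between SI row >3 and centre cells, with 17.1% of all genes called. *Spdef* was then 20.9-fold higher (log2 fold change 4.38 ± 0.42, edgeR adjusted p = 2.57e-06), *Atoh1* 11.4-fold (3.51 ± 0.54, edgeR adjusted p = 0.000727) and *Gfi1* 9.08-fold (3.18 ± 0.40, edgeR adjusted p = 4.19e-06). The enteroendocrine factors *Insm1* (2.62 ± 0.62, 0.00447) and *Neurod1* (2.27 ± 0.75, 0.0431), the tuft cell factor *Pou2f3* (1.89 ± 0.36, 0.000528), *Foxa3* (1.28 ± 0.22, 0.000196) and *Bhlha15* (1.30 ± 0.39, 0.0227) rose as well by edgeR's adjusted p. *Sox4* fell by 2.09 on the log2 scale (SE 0.21, edgeR adjusted p = 1.54e-07). *Neurog3* alone did not pass, at 0.51 ± 0.85 (edgeR adjusted p = 0.842). Over the members the median log2 fold change was 1.53 with all libraries and 2.08 without SI replicate 3, against 0 over all genes tested in both fits.

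**Figure D2:**
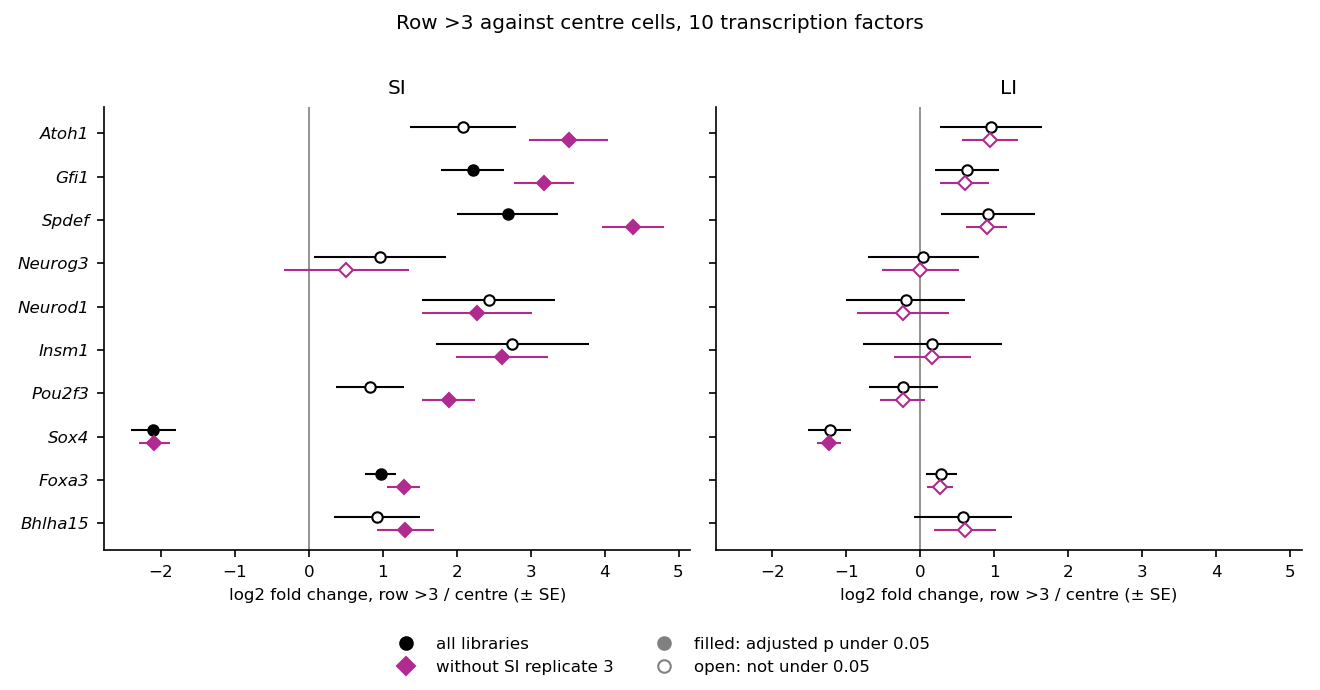
Log2 fold change of row >3 over centre cells (± SE) for each member in the SI and the LI, with all libraries (black circles) and without the 3 SI libraries of replicate 3 (purple diamonds). Filled symbols mark an adjusted p under 0.05. In the SI, *Spdef* moves from 2.69 to 4.38 and *Atoh1* from 2.09 to 3.51 when those libraries are left out, while *Sox4* stays at -2.10 and -2.09. In the LI only *Sox4* is filled, and only in the second fit.

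Between SI row >3 and border cells, *Sox4* fell and *Foxa3* rose, so 2 members were called, beside 1.61% of all genes. *Sox4* was 2.89-fold lower in row >3 cells (-1.53 ± 0.30, edgeR adjusted p = 0.0182) and *Foxa3* 1.78-fold higher (0.84 ± 0.21, edgeR adjusted p = 0.0481). Leaving out SI border replicate 1 or 2 or SI row >3 replicate 1 ended both calls, row >3 replicate 2 that of *Foxa3* and row >3 replicate 3 that of *Sox4*. Libraries did not overlap for *Atoh1*, *Gfi1*, *Spdef* and *Foxa3*, beside 12.9% of all genes. Without SI replicate 3, *Gfi1* (1.58 ± 0.38, edgeR adjusted p = 0.011) and *Spdef* (1.68 ± 0.36, edgeR adjusted p = 0.00963) were called besides *Sox4* (-1.71) and *Foxa3*, beside 7.23% of all genes. *Gfi1* also passed with the replicate block within site (1.40, edgeR adjusted p = 0.0275), where 9.78% of all genes were called.

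SI border cells differed from SI centre cells in none of the 10 members by edgeR with all libraries, where 3 genes in all (0.0112%) were called and 2399, 1 member among them, had an unadjusted p under 0.05. DESeq2 called *Pou2f3* alone among the members, at 1.80 (DESeq2 adjusted p = 0.0244), and 0.782% of all genes. *Pou2f3* was the one member whose libraries did not overlap, beside 8.75% of all genes, with a log2 fold change of 1.76 ± 0.47 (edgeR adjusted p = 0.23). It was, without SI replicate 3, 5.7-fold higher in border cells (2.51 ± 0.37, edgeR adjusted p = 0.000678) and *Spdef* 6.53-fold higher (2.71 ± 0.43, edgeR adjusted p = 0.00432), with 0.963% of all genes called. *Sox4* passed only with the replicate block, at -0.67 (edgeR adjusted p = 0.0499), where 2.32% of all genes were called. *Atoh1* did not pass in any of these fits, with 0.81 ± 0.70 with all libraries and 1.95 ± 0.55 without SI replicate 3 (edgeR adjusted p = 0.848 and 0.218).

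In the LI, none of the members differed between row >3 and centre cells by edgeR with all libraries, a comparison in which 5 genes (0.0187%) were called and 1859, 1 member among them, had an unadjusted p under 0.05. *Sox4* came closest, at -1.23 ± 0.30 (edgeR adjusted p = 0.269). It was called in DESeq2 (-1.24, DESeq2 adjusted p = 0.0346, with 0.307% of genes called), with the replicate block (-1.22, edgeR adjusted p = 0.00121, with 2.59%) and in the fit without SI replicate 3, which keeps every LI library (-1.24 ± 0.16, edgeR adjusted p = 0.000227, with 1.9%). *Atoh1*, *Spdef* and *Gfi1* had log2 fold changes of 0.96 ± 0.69, 0.92 ± 0.64 and 0.63 ± 0.43 (edgeR adjusted p = 0.918, 0.909 and 0.889). Libraries did not overlap for *Atoh1*, *Gfi1* and *Spdef*, which were higher in row >3, nor for *Sox4* and *Pou2f3*, which were lower, beside 14.7% of all genes. The enteroendocrine factors lay between -0.20 (*Neurod1*) and 0.16 (*Insm1*) on the log2 scale.

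LI border cells were compared with LI centre and with LI row >3 cells in the same way, and no member passed in edgeR with all libraries, nor did any gene (0.0% of genes called in both), while 368 and 993 genes (0 and 2 members) had an unadjusted p under 0.05 and DESeq2 called no gene in either. Between LI row >3 and border cells, libraries did not overlap for 5 members, *Foxa3*, *Gfi1* and *Spdef* higher and *Pou2f3* and *Sox4* lower, beside 10.8% of all genes. *Sox4* passed there without SI replicate 3 (-0.84 ± 0.16, edgeR adjusted p = 0.0466), with 0.0802% of genes called, and not with the block (-0.82, edgeR adjusted p = 0.0872, with 0.0674%). No member's libraries separated LI border from LI centre cells, against 5.6% of all genes, and no member was called between them without SI replicate 3, where 0.00382% of genes were.

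Averaged over both sites, *Gfi1* (1.42 ± 0.30, edgeR adjusted p = 0.00281), *Spdef* (1.80 ± 0.46, edgeR adjusted p = 0.0222) and *Foxa3* (0.63 ± 0.15, edgeR adjusted p = 0.00639) rose and *Sox4* (-1.66 ± 0.21, edgeR adjusted p = 9.71e-05) fell from centre to row >3, which is 4 of 10 members beside 12.8% of all genes. *Spdef* was lost when LI centre replicate 1 or LI centre replicate 2 was left out and in the fit on the compared groups alone (1.81, edgeR adjusted p = 0.0691). With the replicate block, *Atoh1* (1.77), *Neurod1* (1.13) and *Insm1* (1.45) also rose (edgeR adjusted p = 0.00554, 0.0151 and 0.0114), beside 22.1% of all genes. In the fit without SI replicate 3, 8 of 10 members were called, beside 17.5% of all genes. *Atoh1* (2.23 ± 0.33, edgeR adjusted p = 0.000492), *Insm1* (1.39 ± 0.41, edgeR adjusted p = 0.0219), *Bhlha15* (0.95 ± 0.29, edgeR adjusted p = 0.0234) and *Pou2f3* (1.77-fold, edgeR adjusted p = 0.015) rose there beside the 4 above, while *Neurod1* (1.02, edgeR adjusted p = 0.206) and *Neurog3* (0.25, edgeR adjusted p = 0.988) did not pass. For border against centre, averaged in the same way, no gene was called with all libraries by edgeR (1686, 2 members among them, at an unadjusted p under 0.05, and 25 genes but no member by DESeq2). *Sox4* passed there with the block (-0.53, edgeR adjusted p = 0.0401, with 1.06% of genes called), and *Spdef* (1.43) and *Pou2f3* (1.43) passed without SI replicate 3 (edgeR adjusted p = 0.0152 and 0.00292, with 0.588%).

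Whether the step from centre to row >3 differed between the sites was tested as the SI change minus the LI change. With all libraries no member and no gene was called by edgeR (0.0% of genes, 1800 at an unadjusted p under 0.05, 4 members among them), and DESeq2 called 0.565% of genes but no member. The largest differences were those of *Neurod1* (2.63 ± 1.22, edgeR adjusted p = 0.721) and *Insm1* (2.59 ± 1.42, edgeR adjusted p = 0.836), and *Neurod1* passed with the replicate block (2.54 ± 0.66, edgeR adjusted p = 0.0443, with 2.32% of genes called). When SI replicate 3 was left out, the SI change minus the LI change was above 0 for *Spdef* (3.48 ± 0.49, edgeR adjusted p = 0.000794), *Gfi1* (2.58 ± 0.53, edgeR adjusted p = 0.00543) and *Pou2f3* (2.13 ± 0.47, edgeR adjusted p = 0.00989), beside 3.27% of all genes. *Atoh1* had 2.57 ± 0.64 and *Foxa3* 1.01 ± 0.29 in that fit (edgeR adjusted p = 0.0589 and 0.0519). For border against centre, no member's difference between sites passed in either edgeR fit (with all libraries 708 genes and 1 member at an unadjusted p under 0.05, and 0.00749% of genes but no member called by DESeq2). *Pou2f3* had 2.16 ± 0.47 and *Spdef* 2.55 ± 0.51 without SI replicate 3 (edgeR adjusted p = 0.0708 and 0.075), and *Spdef* was called when SI centre replicate 3 alone was left out (2.71, edgeR adjusted p = 0.0417).

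The sites were next compared at equal sort level. In centre cells no member differed by edgeR with all libraries, where 1.99% of all genes were called and 3884 genes, 3 members among them, had an unadjusted p under 0.05. DESeq2 called 4.6% of all genes and no member. Libraries separated only for *Foxa3* (lower in the SI), beside 18.2% of all genes. Without SI replicate 3, *Spdef* was 9.51-fold lower in SI than in LI centre cells (log2 fold change -3.25 ± 0.40, edgeR adjusted p = 3.89e-05), *Atoh1* 7.76-fold lower (-2.96 ± 0.51, edgeR adjusted p = 0.00263) and *Foxa3* 1.61-fold lower (-0.69 ± 0.21, edgeR adjusted p = 0.0333), while *Bhlha15* was 2.97-fold higher (1.57 ± 0.42, edgeR adjusted p = 0.0182), with 10.9% of all genes called. *Atoh1* and *Spdef* had -1.40 ± 0.70 and -1.54 ± 0.66 with all libraries (edgeR adjusted p = 0.399 and 0.299). *Sox4* was at 0.16 ± 0.29 and 0.35 ± 0.18 in these fits (edgeR adjusted p = 0.875 and 0.273).

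**Figure D3:**
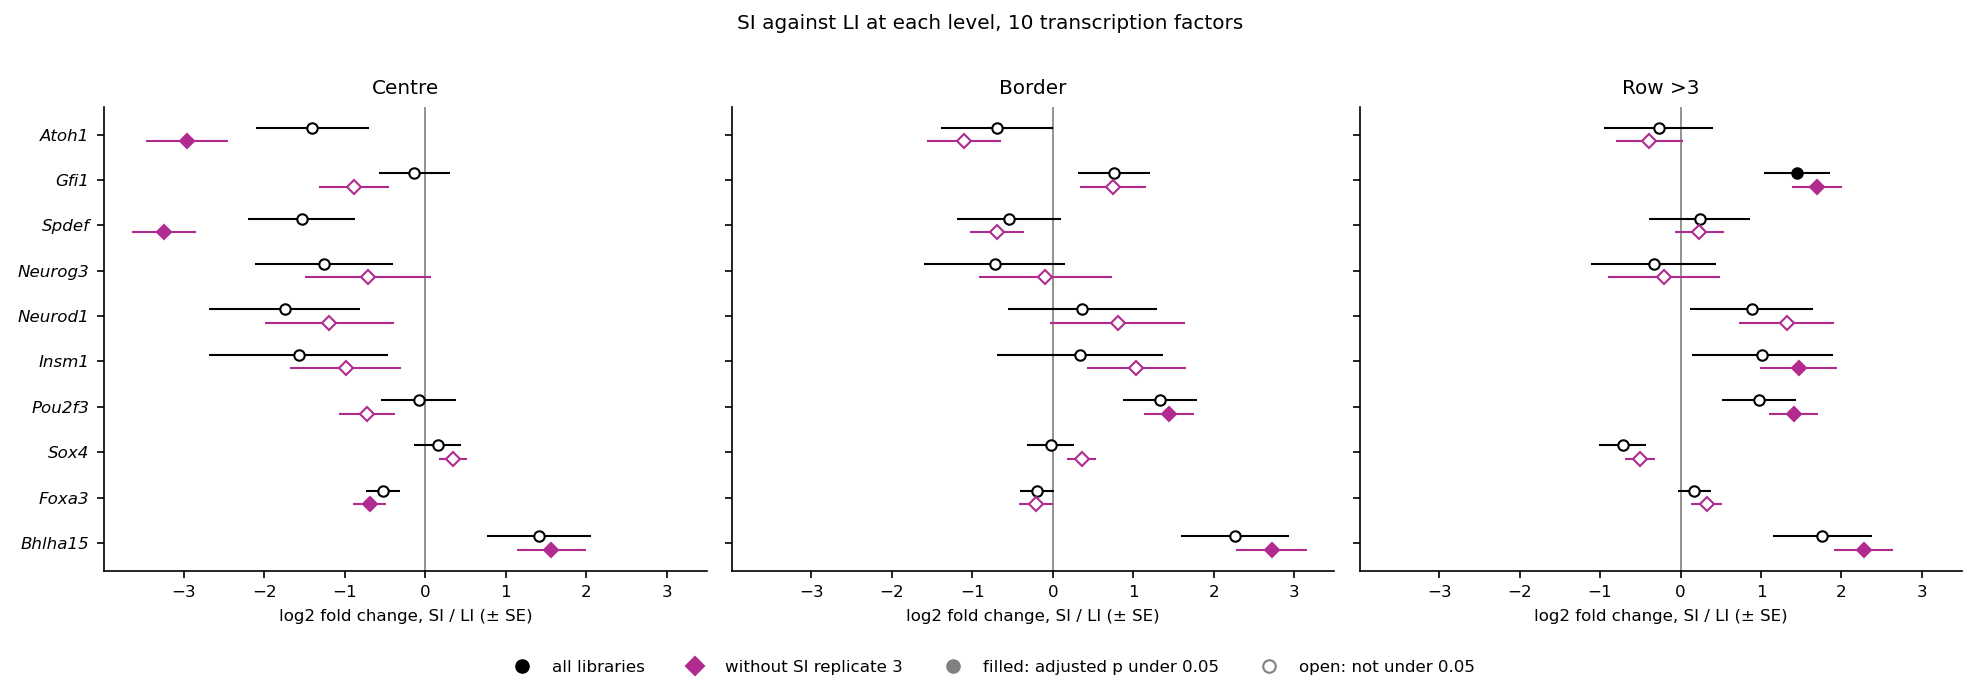
Log2 fold change of SI over LI cells (± SE) for each member at each sort level, with all libraries (black circles) and without the 3 SI libraries of replicate 3 (purple diamonds). Filled symbols mark an adjusted p under 0.05. In the second fit *Atoh1* and *Spdef* lie at -2.96 and -3.25 in centre cells and at -0.39 and 0.23 in row >3 cells, and *Bhlha15* lies at 1.57, 2.72 and 2.27 from centre to row >3.

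In border cells, *Bhlha15* showed the largest difference between the sites, 2.27 ± 0.67 on the log2 scale (edgeR adjusted p = 0.108). It did not pass with all libraries, nor did any other member, beside 1.75% of all genes and 3706 genes, 2 members among them, at an unadjusted p under 0.05. It passed without SI replicate 3, where it was 6.58-fold higher in the SI (2.72 ± 0.44, edgeR adjusted p = 0.000249), in DESeq2 (2.35, DESeq2 adjusted p = 0.00452) and with a replicate block over all libraries (2.15, edgeR adjusted p = 0.0218). *Pou2f3* was 2.72-fold higher in the SI without SI replicate 3 (1.44 ± 0.31, edgeR adjusted p = 0.00353) and passed in DESeq2 (1.42, DESeq2 adjusted p = 0.0436). Genes called were 8.1% of all without SI replicate 3, 4.54% in DESeq2 and 4.27% with the block. Libraries separated for *Bhlha15*, *Gfi1* and *Pou2f3*, higher in the SI, and for *Spdef*, lower in the SI, beside 15% of all genes.

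In row >3 cells *Gfi1* was 2.73-fold higher in the SI (1.45 ± 0.41, edgeR adjusted p = 0.0464), the 1 member called, beside 4.09% of all genes. The call was kept without SI row >3 replicate 3 (1.66, edgeR adjusted p = 0.0163) and lost without any other of the 6 libraries. Without SI replicate 3, *Gfi1* (1.70 ± 0.31, edgeR adjusted p = 0.000365), *Bhlha15* (2.27 ± 0.37, edgeR adjusted p = 0.000152), *Pou2f3* (1.41 ± 0.31, edgeR adjusted p = 0.00251) and *Insm1* (1.47 ± 0.48, edgeR adjusted p = 0.0481) were higher in the SI, beside 12.2% of all genes. *Bhlha15* also passed with the block over all libraries (1.63, edgeR adjusted p = 0.0376, with 6.89% of genes called) and in DESeq2 (1.80, DESeq2 adjusted p = 0.0327, with 6.3%). *Atoh1* and *Spdef*, which differed between the sites in centre cells in the fit without SI replicate 3, were at -0.39 ± 0.42 and 0.23 ± 0.30 here in that fit (edgeR adjusted p = 0.728 and 0.794). *Sox4* was at -0.72 ± 0.30 with all libraries (edgeR adjusted p = 0.228), with SI libraries all below LI libraries. Libraries also separated for *Spdef* and *Gfi1*, beside 17.6% of all genes.

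Paneth cells, which are known in the SI and not in the LI, express *Gfi1*, *Spdef* and *Bhlha15*. Over 12 Paneth cell products the summed normalised counts ran from 45400 to 213800 in SI centre, from 14930 to 159500 in SI border and from 6812 to 122300 in SI row >3 libraries, against at most 2741 in any LI library. Of these products, 8 of 12 were called higher in the SI than in the LI at each of the 3 levels by edgeR with all libraries, beside 1.99%, 1.75% and 4.09% of all genes called in centre, border and row >3 cells, among them the defensin *Defa24* and the matrix protease *Mmp7*. *Lyz1*, the Paneth cell lysozyme, had 938 normalised counts in SI row >3 replicate 3 against 18290 and 23080 in replicates 1 and 2, and at most 1.52 in the LI. Between SI row >3 and SI centre cells none of the 12 was called by edgeR with all libraries, nor at an unadjusted p under 0.05 or by DESeq2. Without SI replicate 3, 1 of the 12 (*Mmp7*, 1.31, edgeR adjusted p = 0.033) was higher in row >3 cells, and 10, 9 and 9 were higher in the SI in centre, border and row >3 cells, beside 10.9%, 8.1% and 12.2% of all genes called. How far Paneth cells among the sorted cells account for the higher *Bhlha15* and *Gfi1* in the SI was not tested.

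The products that lie downstream were read beside the factors, from lists of genes chosen by their known roles. Of 12 goblet and deep crypt secretory products, 7 rose and 1 fell from SI centre to row >3 cells (median log2 fold change 2.75, against 0 over all genes, of which 13.2% were called), and 9 rose and 1 fell without SI replicate 3 (median 4.33, with 17.1% of all genes called). *Tff3* (trefoil factor, 3.99), *Agr2* (a protein disulphide isomerase needed for mucin, 3.35) and *Guca2a* (guanylin, 3.17) were among those that rose (edgeR adjusted p = 0.00351, 0.00473 and 0.00871). The entry with the symbol *Clca1* fell by 2.04 (edgeR adjusted p = 0.001). It was matched by the symbol of the count table, to ENSMUSG00000056025 at chr3:144729677-144760977. Such symbols differ from GENCODE M21 for some genes, so this entry is not read as the goblet cell protein. The counts for the 12 products include it. *Muc2*, the gel-forming mucin, had 7468, 15660 and 142500 normalised counts in SI centre and 471400, 346100 and 353300 in SI row >3 replicates 1 to 3. Its SI centre replicate 3 value was high in the same library as those of *Atoh1* and *Spdef*. In the LI, none of the 12 products was called between row >3 and centre cells by edgeR with all libraries. There 4 had an unadjusted p under 0.05, beside 1859 of the 26717 genes tested, and DESeq2 called 1, beside 0.307% of all genes. Without SI replicate 3, edgeR called 1 in the LI (the same entry with the symbol *Clca1*, lower), beside 1.9%.

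Tuft cell products were read beside *Pou2f3*. Of 13, none was called between SI border and centre cells with all libraries by edgeR (median log2 fold change 1.79). There 6 had an unadjusted p under 0.05, beside 2399 of the 26717 genes tested, and DESeq2 called 3, beside 0.782% of all genes. Without SI replicate 3, 12 of the 13 rose (median 4.56), where 0.963% of all genes were called. *Dclk1*, a kinase that marks tuft cells, had 167, 215 and 4136 normalised counts in SI centre, 7036, 2206 and 3528 in SI border and 2787, 3132 and 728 in SI row >3 replicates 1 to 3. *Trpm5*, the taste transduction channel of tuft cells, had 96.4, 191 and 2201 in SI centre cells, while its SI border values were 5424, 1668 and 2492. SI centre replicate 3 was thus high for tuft cell products, in the same library as its highest *Pou2f3* value. In the SI row >3 comparison with centre, 2 of 13 (*Alox5ap* and *Plcb2*) rose with all libraries, beside 7.35% of all genes, and 12 rose without SI replicate 3, where 17.1% of all genes were called. Between the LI positions none was called by edgeR, nor at an unadjusted p under 0.05 or by DESeq2.

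Enteroendocrine products were read beside *Neurod1* and *Insm1*. From SI centre to row >3 cells, 4 of 16 rose with all libraries, beside 7.35% of all genes, the granins *Scg3* (5.27) and *Scg2* (3.52), *Pcsk1n* (3.29) and the hormone gene *Cck* (3.17), with edgeR adjusted p of 0.00551, 0.00781, 0.0203 and 0.0217. In the fit without SI replicate 3, 8 of 16 rose, beside 17.1% of all genes called. *Chga*, chromogranin A, had 289, 1435 and 27 normalised counts in SI centre and 1934, 2319 and 243.5 in SI row >3 replicates 1 to 3, so that the replicate 3 library was the lowest at both positions, as it was for *Neurod1* and *Insm1*. Of the 16 products, none was called between LI row >3 and centre cells by edgeR with all libraries, nor at an unadjusted p under 0.05 or by DESeq2. Without SI replicate 3, *Sct* (secretin) rose from LI centre to row >3 (1.46, edgeR adjusted p = 0.00436), beside 1.9% of all genes called.

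Among 14 genes of Notch lateral inhibition, 2 rose and 4 fell from SI centre to row >3 cells with all libraries, where 13.2% of all genes were called and 7.35% called higher. The ligand genes *Dll1* (1.72, edgeR adjusted p = 7.4e-05) and *Dll4* (1.11, edgeR adjusted p = 0.0145) rose, and the receptor genes *Notch1* (-2.18) and *Notch2* (-1.69), the target *Hes1* (-1.38) and the glycosyltransferase gene *Lfng* (-0.85) fell (edgeR adjusted p = 7.34e-05, 0.00569, 0.000413 and 0.00712). *Dll1* had 430.3, 689.8 and 629 normalised counts in SI centre and 2180, 2416 and 1141 in SI row >3 cells, and *Hes1* had 1625, 1328 and 1098 in SI centre cells against 497, 472 and 589 in SI row >3 cells. The groups did not overlap for either gene. Between the sites in row >3 cells, 3 of the 14 were called with all libraries, beside 4.09% of all genes, with *Dll1* (0.96) and *Olfm4* (193.6 to 8204 normalised counts in the SI against at most 1.52 in the LI) higher and *Hes1* (-1.42) lower in the SI (edgeR adjusted p = 0.0171, 0.0143 and 0.000683), and without SI replicate 3 *Dll1* and *Hes1* were at 1.28 and -1.47 (edgeR adjusted p = 3.18e-05 and 0.000344). In the LI none of the 14 was called between row >3 and centre cells by edgeR with all libraries. There 5 had an unadjusted p under 0.05, beside 1859 of the 26717 genes tested, and DESeq2 called 1, beside 0.307% of all genes. Without SI replicate 3, *Dll1* and *Dll4* rose and *Notch1* and *Notch2* fell in the LI, beside 1.9% of all genes.

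Of 25 further transcription factors of secretory lineages, 9 rose and 2 fell from SI centre to row >3 cells with all libraries (15 and 1 without SI replicate 3), beside 13.2% of all genes called, 7.35% higher, and 17.1% without SI replicate 3. *Xbp1*, a factor of the unfolded protein response, was at 1.65 and *Klf4*, a factor of goblet cell maturation, at 2.23, while *Sox9*, a factor of stem and Paneth cells, fell by 1.02 (edgeR adjusted p = 7.34e-05, 0.00544 and 0.000155). Between SI border and centre cells none of the 25 was called by edgeR with all libraries. There 7 had an unadjusted p under 0.05, beside 2399 of the 26717 genes tested, and DESeq2 called 1, beside 0.782% of all genes. Without SI replicate 3, 5 rose, where 0.963% of all genes were called. The 5 included the tuft cell factors *Spib* (3.89) and *Gfi1b* (4.96), with edgeR adjusted p of 2.73e-05 and 0.0144.

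Markers of other cells were read to see what the sort held. All 8 epithelial markers were detected, with *Epcam* between 14650 and 24710 normalised counts. Their sum was 67150 to 92170 normalised counts in SI centre, 88680 to 138300 in SI border and 150000 to 172200 in SI row >3 libraries, and 5 of the 8 were called higher in SI row >3 than in SI centre cells by edgeR with all libraries, beside 7.35% of all genes called higher. The T cell gene *Cd3e* was at most 9.45 and the myeloid gene *Lyz2* at most 7.44 normalised counts in any library, and the stromal and endothelial markers summed to at most 371. Their sum was 10.3 to 25.8 in SI centre, 58.9 to 210.1 in SI border and 95.2 to 161 in SI row >3 libraries, in border and row >3 cells mostly from *Vim* and *Pecam1*, while *Dcn*, *Lum* and *Cdh5* were at 0 in every SI library. The part of the epithelial, stromal and endothelial markers in the members' differences was not tested. Of 11 immune markers tested, 1 (*Kit*, which deep crypt secretory cells also express) rose from SI centre to row >3 cells with all libraries (1.07, edgeR adjusted p = 0.011), beside 7.35% of all genes called higher, and the summed list ran from 1319 to 2330 normalised counts in SI centre and from 2943 to 4474 in SI row >3 cells. *Ptprc* was at 44.6, 21.2 and 256 in SI centre and at 555, 204 and 389 in SI border replicates 1 to 3, high where *Pou2f3* was high, and rose from SI centre to border without SI replicate 3 (3.39, edgeR adjusted p = 0.0182). Tuft cells are known to express *Ptprc*, and the part of immune cells in the *Pou2f3* values was not tested.

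Across the 18 libraries, *Atoh1* and *Spdef* were the most alike of the members (Pearson's r = 0.97 of log2 CPM), with *Foxa3* next to both (0.86 and 0.85). *Neurod1* and *Insm1* formed a second pair (0.72). *Sox4* ran against *Gfi1* (-0.77), *Spdef* (-0.71) and *Foxa3* (-0.71). Without SI replicate 3, over 15 libraries, these values were 0.97, 0.87, 0.85, 0.70, -0.78, -0.74 and -0.80, and *Gfi1* rose towards *Neurod1* (from 0.41 to 0.70) and *Insm1* (from 0.28 to 0.78). *Bhlha15* had little in common with *Atoh1* (-0.20) or *Spdef* (-0.11) over 18 libraries. The libraries share sites, sort levels and replicates, so these coefficients describe the data and are not a test.

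**Figure D4:**
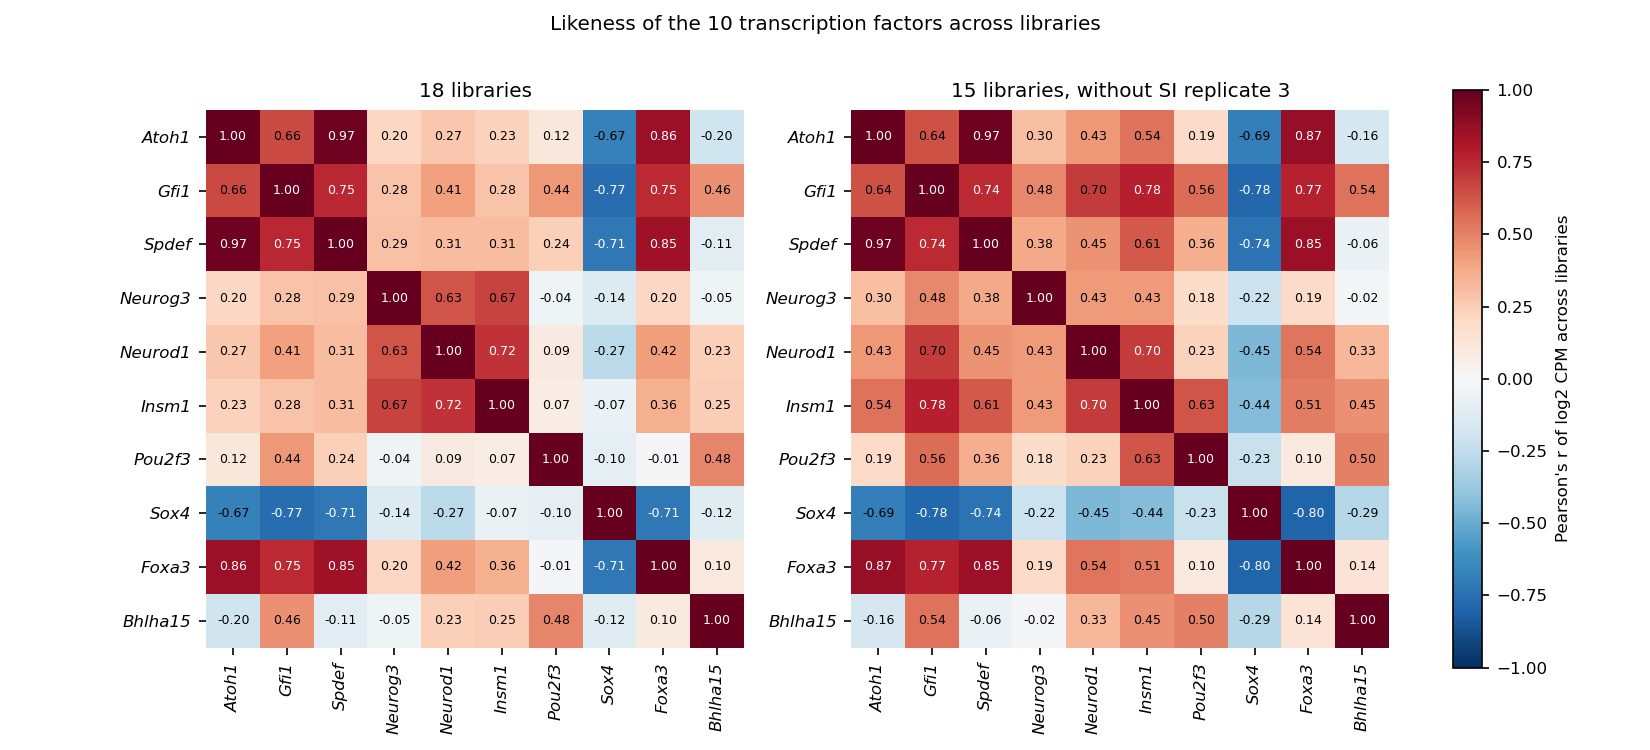
Pearson's r of log2 CPM between members over all 18 libraries (left) and over the 15 without SI replicate 3 (right), with red for positive and blue for negative values. *Atoh1*, *Spdef* and *Foxa3* form a block of 0.85 to 0.97 in both panels, *Neurod1* and *Insm1* a pair of 0.72 and 0.70, and *Sox4* is negative against every other member.

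The genes most like each member were sought among 12977 genes with a mean of at least 1 CPM over the 18 libraries, again as a description. *Atoh1* was followed most closely by *Hepacam2* (r = 0.989) and *Spink4* (0.986), and *Spdef* by *Selm* (0.982) and *Galnt5* (0.978). *Neurod1* was nearest to *Chga* (0.942), *Insm1* to *Lmx1a* (0.935) and *Rfx6* (0.897), which are enteroendocrine factors, and *Pou2f3* to *Avil* (0.961), *Vav1* (0.957) and *Plcg2* (0.947). *Sox4* was nearest to *Mcc* (0.988) and *Mycl* (0.978). *Gfi1* was nearest to *Ano7* (0.936), *Foxa3* to *Asph* (0.939) and *Herpud1* (0.933), *Bhlha15* to *Atp13a1* (0.928) and *Neurog3* to *Wbscr22* (0.856). Over the 15 libraries without SI replicate 3, the nearest gene was the same for *Atoh1*, *Gfi1*, *Spdef*, *Sox4* and *Pou2f3*, and another for *Neurog3* (*Fstl3*), *Neurod1* (*Chgb*), *Insm1* (*Cacna1h*), *Foxa3* (*Art2a-ps*) and *Bhlha15* (*Zbtb18*).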

How the data were processed

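RNA of EPCAM-positive, GFP-sorted cells (at least 270 pg) was made into libraries with a SMART-Seq Stranded kit and read as pairs of 100 nt. Skewer (trimming), STAR (alignment) and mm10 were used by the authors. Their deposited files hold raw counts of each gene, used here, and normalised counts (unit signal). The normalised counts equalled the raw counts divided by a size factor per library. Within a library the ratio of raw to normalised count was constant over genes (largest relative deviation 9.77e-15). That figure does not compare these factors with DESeq2 size factors. For the counting, neither annotation release nor strand setting is given in the sources used here.

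Counts were fitted with edgeR 4.0.16 in R 4.3.3 (TMM factors, genes with a mean count above 0, robust quasi-likelihood test over 6 groups, 12 residual degrees of freedom), with Benjamini-Hochberg adjustment over all 26717 genes tested and a threshold of 0.05. Standard errors in edgeR were derived as the absolute log2 fold change divided by the square root of the quasi-likelihood F statistic, and are approximate. DESeq2 1.42.0, other size factors, other filters on low counts (none, filterByExpr), a replicate block, fits on the compared groups alone and fits without libraries were alternatives. The fits without the SI replicate 3 libraries test 26181 genes. Same-numbered libraries of a site deviated from their group means together (correlation 0.358 to 0.783 in the SI and 0.444 to 0.684 in the LI, over 10223 genes of at least 5 CPM), so the number was used as a block within site. Between sites the correlation was 0.184 to 0.271 in border cells, 0.0196 to 0.314 in centre cells and -0.0296 to 0.332 in row >3 cells. Likeness used log2 CPM with a prior count of 2. Intervals from counts cover counting error only. The scripts were tested on simulated data.

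The members and all gene lists were chosen with earlier results of these data known. All members are named. Of the other lists, genes with the smallest p were named where called. *Muc2*, *Dclk1*, *Trpm5*, *Chga*, *Lyz1*, *Ptprc* and the genes cited without SI replicate 3 were chosen after their values were seen. Promoter windows were read from RefSeq and positions from GENCODE M21.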

Additional observations from a re-analysis of the deposited data

Results flagged for a closer look

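*Neurod1* normalised counts were ordered differently in the 2 sites. In every SI replicate both the border and the row >3 library lay above the centre library, whereas in every LI replicate both lay below it. In LI replicate 1 the centre and row >3 libraries held the same raw count of 11, which is 12.94 and 10.02 normalised counts. The difference between the sites, SI change minus LI change, was 2.63 ± 1.22 on the log2 scale for row >3 against centre cells (edgeR adjusted p = 0.721) and 2.11 ± 1.33 for border against centre cells (edgeR adjusted p = 1.0), so neither difference passed the test with all libraries. With the replicate block within site the row >3 difference passed (2.54, edgeR adjusted p = 0.0443) and the border difference did not (2.19, edgeR adjusted p = 0.811). This block was the only 1 of 21 alternatives in which the row >3 difference passed. Raw counts of *Neurod1* were at most 131 in any library.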

How the results depend on the processing

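None of the 48 member fold changes compared under the alternatives changed direction. Differences near 0 outside these did, such as that of *Sox4* between sites in border cells (-0.02 with all libraries, 0.36 without SI replicate 3), and the product lists were fitted only with all libraries, with the block, without SI replicate 3 and in DESeq2. Values below are numbers of members called, first with all libraries and then under the alternative. Without the 3 SI libraries of replicate 3, an alternative planned with earlier results of these data known, the number went from 4 to 9 for SI row >3 against centre, 0 to 2 for SI border against centre, 2 to 4 for SI row >3 against border, 0 to 1 for LI row >3 against centre and against border, 0 to 4, 0 to 2 and 1 to 4 for SI against LI in centre, border and row >3 cells, 4 to 8 and 0 to 2 for the mean of sites (row >3 and border against centre) and 0 to 3 for the row >3 difference between sites. Without replicate 3 of both sites the numbers, in the same order, were 9, 2, 5, 1 (against centre), 2, 2, 3, 7, 2 and 4, beside 16.5%, 1.03%, 6.98%, 0.942%, 8.08%, 5.96%, 9.58%, 15.4%, 0.524% and 2.22% of all genes called.

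With the replicate block within site, the number was 7 for SI row >3 against centre, 1 for SI border against centre, 1 for LI row >3 against centre, 7 and 1 for the means of sites and 1 for the row >3 difference between sites, and the block changed no other count past 1.5 times. The block over all libraries, chosen after seeing the data, gave 1 in border and 2 in row >3 cells between sites. DESeq2 gave 1 for SI border against centre, 1 for LI row >3 against centre, and 2 and 2 between sites in border and row >3 cells. Fits on the compared groups alone gave 2 for SI row >3 against centre, 0 for SI row >3 against border, 1 for LI row >3 against centre and 1 between sites in border cells, beside 10.7%, 0.0%, 1.03% and 1.16% of all genes called. Library sizes in place of TMM factors gave 1 for SI row >3 against border (0.808% of all genes called, 1.61% with TMM), and no filter on low counts gave 1 there and 0 between sites in row >3 cells (0.556% and 1.93%, against 1.61% and 4.09% with the filter). The stricter filterByExpr, with 15998 genes tested, added *Atoh1* for SI row >3 against centre (edgeR adjusted p = 0.0415) and for the mean of sites (1.52, edgeR adjusted p = 0.0343) and changed no other of the 48 calls, while the share of all genes called was 25.8% and 25.5% there, 4.48% for SI row >3 against border and 8.57% between sites in row >3 cells.

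Leaving out 1 library at a time gave 0 to 2 for SI border against centre, 4 to 6 for SI row >3 against centre, 0 to 2 for SI row >3 against border, 0 for the LI comparisons, 0 to 2, 0 to 1 and 0 to 3 between sites in centre, border and row >3 cells, 3 to 5 and 0 to 2 for the means of sites, and 0 to 1 for both differences between sites. The share of all genes called moved as well, in the same fits from 0.0 to 1.21%, 7.45 to 14.3%, 0.0113 to 5.71%, at most 0.0113% in the LI, 0.679 to 4.66%, 0.519 to 3.24%, 1.43 to 6.34%, 9.22 to 14%, 0.0 to 0.549%, and at most 0.875% and 0.0871% for the differences. The cause of these changes was not tested. Raw counts were at most 71 for *Neurog3*, 131 for *Neurod1* and 212 for *Insm1* in any library. A block within site was not fitted for SI against LI, since the number within a site cannot be told apart from the site.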
